A study of Equus caballus with 4 samples.

Results

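The HOX genes encode homeodomain transcription factors and lie in 4 clusters, HOXA to HOXD. They were taken here as every non-control probe of the horse array whose gene name was HOX, a letter from A to D and a number. The members described are 45 probes for 23 HOX genes, out of 43603 non-control probes and 15065 named genes. Expression was compared between equine satellite cells exposed to gamma-oryzanol (GO), a mixture of ferulic acid esters from rice bran, and control cells. Satellite cells are the stem cells of skeletal muscle, which differentiate and fuse into myotubes. The cells came from *m. semitendinosus*, a hindlimb muscle, of 6-month-old colts, and were kept in differentiation medium for 48 h before 0.125 µM GO was added for 24 h. The control cells, at the same 3rd day of differentiation, received the same dose of the DMSO vehicle (0.04 µl/ml), which both groups therefore carried. On each of 4 two-color arrays of 1 slide, cRNA of GO-treated cells (Cy5) was hybridized with cRNA of control cells (Cy3). No dye was swapped, so dye and treatment cannot be told apart. The labels call the arrays biological replicates. The methods describe muscle from 6 horses and also state that 1 cell line was chosen, so p-values measure the spread among these 4 arrays, which may be that of cultures of a single animal.

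During development HOX genes are switched on in the order in which they lie in a cluster. Low numbers are used toward the head and high numbers toward the tail and the tips of the limbs, and genes with the same number in different clusters are paralogs, copies of 1 ancestral gene. Cells grown from adult tissue, fibroblasts and muscle progenitors among them, keep a pattern of active HOX genes that reflects where in the body they came from. The proteins bind DNA through the homeodomain, often together with PBX and MEIS cofactors, and Polycomb and Trithorax complexes keep the genes silent or active.

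Many of the probes read the homeobox, the stretch that encodes the homeodomain and is the part most alike between HOX genes. A motif of 17 bases, CAGAANCGNNGNNTNAA, which encodes the core of the DNA-contacting helix and was searched on both strands, stood in 17 of 45 HOX probes (37.8%), against 30 of all 43603 probes (0.0688%). These 17 probes belonged to 7 genes. The *HOXB1* probe is shown first, with the motif in capitals, because it and the *HOXB3* probe are the pair of members most alike.
HOXB1: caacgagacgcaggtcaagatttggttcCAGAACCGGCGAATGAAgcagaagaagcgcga
All 60-base probes are written 5' to 3' as deposited. On EquCab1, the build that the files use, this probe lies at chr11:23358342-23358401 on the minus strand. Without gaps, it matched the *HOXB3* probe at 37 of 44 aligned bases (84.1%). No other pair of members, of 253, reached 80%. Despite this likeness the probes gave different readings. *HOXB3* was well above background on all 4 control arrays, and *HOXB1* on 1. How far a probe also bound transcripts of a paralog was not tested.

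Homeobox probes of 4 genes above background, 1 for each gene, and a probe of *HOXC5*, which was not, show the motif in different surroundings, with its free positions filled by different bases.
HOXA9: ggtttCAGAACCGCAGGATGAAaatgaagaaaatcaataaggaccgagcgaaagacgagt
HOXD9: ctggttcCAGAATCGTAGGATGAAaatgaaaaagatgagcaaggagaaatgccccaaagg
HOXC6: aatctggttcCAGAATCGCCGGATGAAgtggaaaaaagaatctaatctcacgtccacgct
HOXB13: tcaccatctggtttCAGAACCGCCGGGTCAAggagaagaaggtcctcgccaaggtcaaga
HOXC5: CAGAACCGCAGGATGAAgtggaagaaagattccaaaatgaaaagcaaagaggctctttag
They lie at chr4:57736702-57736761 (*HOXA9*, minus strand), chr18:43068063-43068122 (*HOXD9*, plus), chr6:70965764-70965823 (*HOXC6*, plus), chr11:23517738-23517797 (*HOXB13*, minus) and chr6:70970405-70970464 (*HOXC5*, plus). Exon annotation of this build was not used here.

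By the strict detection flag, the control cells had a partial HOX code. A gene was counted as above background when the scanner software marked at least 1 of its probes as well above the local background on all 4 arrays. In the control channel this held for 13 of 23 HOX genes (56.5%), beside 64.0% of all named genes, so HOX genes as a group were not detected more often than other genes. By the weaker flag of a positive and significant signal on all 4 arrays, the count was 20 of 23. The 13 genes that passed the strict flag were *HOXA5*, *HOXA6*, *HOXA7*, *HOXA9* and *HOXA10*, *HOXB2*, *HOXB3* and *HOXB13*, *HOXC6* and *HOXC8*, and *HOXD3*, *HOXD9* and *HOXD10*. By cluster these were 5 of 7 members of HOXA, 3 of 7 of HOXB, 2 of 6 of HOXC and 3 of 3 of HOXD. The probes of the clusters lay on chromosomes 4, 11, 6 and 18.

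The strict flag left gaps inside clusters. In HOXB, the probes of *HOXB6* and *HOXB7* passed on 0 control arrays and the best of 5 *HOXB5* probes passed on 1, while *HOXB2*, *HOXB3* and *HOXB13* on either side passed on 4. In HOXC, *HOXC4* and *HOXC11* passed on 0 control arrays, *HOXC5* and *HOXC13* on 1, and *HOXC6* and *HOXC8* on 4. *HOXA2* passed on 0, and *HOXA13*, a gene of the most distal limb, on 3. *HOXA2*, *HOXB6* and *HOXC4* were positive and significant on all 4 control arrays and failed the strict flag alone, whereas *HOXB7* was on 0 by either flag. A probe that failed gives only a limit of this array, and these genes may be expressed below it. The signal of *HOXB7* was 1.20 to 1.61 times its local background in the control channel, that of *HOXA13* 2.04 to 2.69 times, and that of *HOXA10* 57.9 to 113 times. These ratios describe each probe against its own background and give no order of expression between genes.

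In the GO channel 11 of the 23 genes were above background. The difference lay in *HOXA6*, which passed on 4 control arrays and 2 GO arrays, and *HOXB2*, with 4 and 3. Both were close to the limit, with control signals of 2.39 to 2.82 and 2.49 to 3.68 times background. On arrays 3 and 4 fewer probes of the whole array were well above background in the GO channel, 62.0% and 57.4%, than in the control channel, 66.6% and 63.5%. The median signal over background was lower in the GO channel on array 3 (2.85 against 3.79) but not on array 4 (4.15 against 3.98). Whether this had a part in the 2 losses was not tested.

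**Figure D1:**
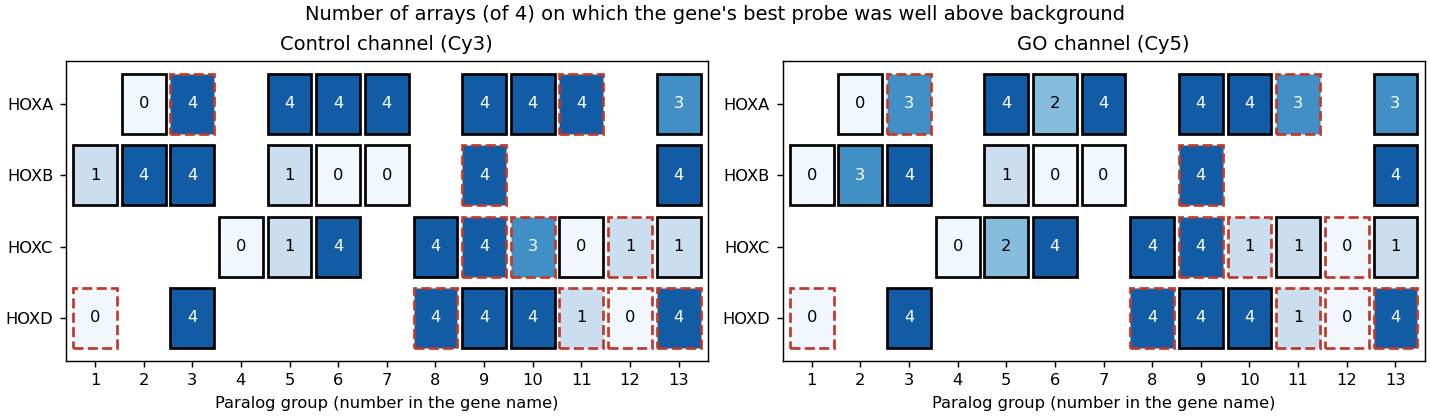
HOX genes by cluster (rows) and paralog group (columns), with the number of arrays out of 4 on which the best probe of the gene exceeded the background limit, for control cells (left) and GO-treated cells (right). Black frames mark the 23 members, dashed red frames the 11 genes named only in the probe description, and empty places are not shown or have no probe under either rule. The left panel shows 5 HOXA members at 4 arrays and the gap from *HOXB5* to *HOXB7*.

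A further 11 HOX genes were named only in the description of a probe, so they are not members. They had 27 probes. In the control channel *HOXA3*, *HOXA11*, *HOXB9*, *HOXC9*, *HOXD8* and *HOXD13* were above background, and *HOXC10*, *HOXC12*, *HOXD1*, *HOXD11* and *HOXD12* were not. With them 19 of 34 HOX genes were above background.

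The origin of the cells was checked with other position genes. *TBX4* and *PITX1*, which specify the hindlimb, were each well above background on 2 of 4 control arrays, and *TBX5*, the forelimb counterpart, on 0. The defining hindlimb markers were thus above background on some arrays only. The muscle identity was clear, with 12 of 12 measured muscle markers above background in control cells, *MYF5*, *MYOD1*, *MYOG* and *DES* among them. Of the fibroblast and mesenchymal markers 9 of 10 were also above background, so the HOX code is that of the culture and cannot be assigned to 1 cell type. Endothelial and adipocyte markers were above background on all 4 arrays for 0 of 6 and 0 of 5 genes. Of the adipocyte markers, *LPL* passed on 3 control arrays and *PPARG* on 2, and *ADIPOQ*, *FABP4* and *LEP* on 0. Leukocyte markers were above background for 2 of 6 (*CD14* and *CD68*, with *LCP1*, *TYROBP* and *CD3E* on 0 arrays).

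The second question was whether 24 h of GO shifted this code. No HOX gene passed the thresholds of the study, an adjusted p of 0.05 or less (limma, Benjamini-Hochberg over all 26832 probes tested) with a 1.3-fold or larger difference, which is 0.38 on the log2 scale. The 27 probes of the 13 genes above background were tested, and 0 of 27 passed, where 8.94% of all probes tested did (3.33% higher and 5.61% lower in GO-treated cells). Per gene, by the brightest probe, 0 of 13 passed, where 8.82% of named genes did. A single call among 13 genes would have been 7.69%, so a count of 0 does not set HOX genes apart from other genes. At an unadjusted p of at most 0.05, limma had 8 of 27 probes (29.6%) beside 35.7% of all probes, and a plain one-sample test had 5 (18.5%) beside 28.2%. Per gene, limma had 4 of 13 at this p, beside 34.8% of named genes.

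The ratios were small. The mean log2 ratio of GO over control ranged from -0.25 to 0.31 over the 13 genes, at most a 1.24-fold difference. Their median was 0.03, beside 0.002 over all 9673 named genes tested, and the median size was 0.13, beside 0.13. There were 7 genes above 0 and 6 below, of which *HOXD3* and *HOXA6* turned sign with normexp background correction and *HOXD3* also with median centring in place of lowess. The sign was the same on all 4 arrays for 3 genes above 0 and 3 below, which is 6 of 13, beside 42.3% of named genes. For 10 of the 13 the 95% interval of the log2 ratio lay inside -0.38 to 0.38, beside 63.8% of named genes. For the other 3, *HOXA7*, *HOXB13* and *HOXD10*, the interval reached a 1.3-fold difference, so a difference of that size lay within the error of 4 arrays.

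**Figure D2:**
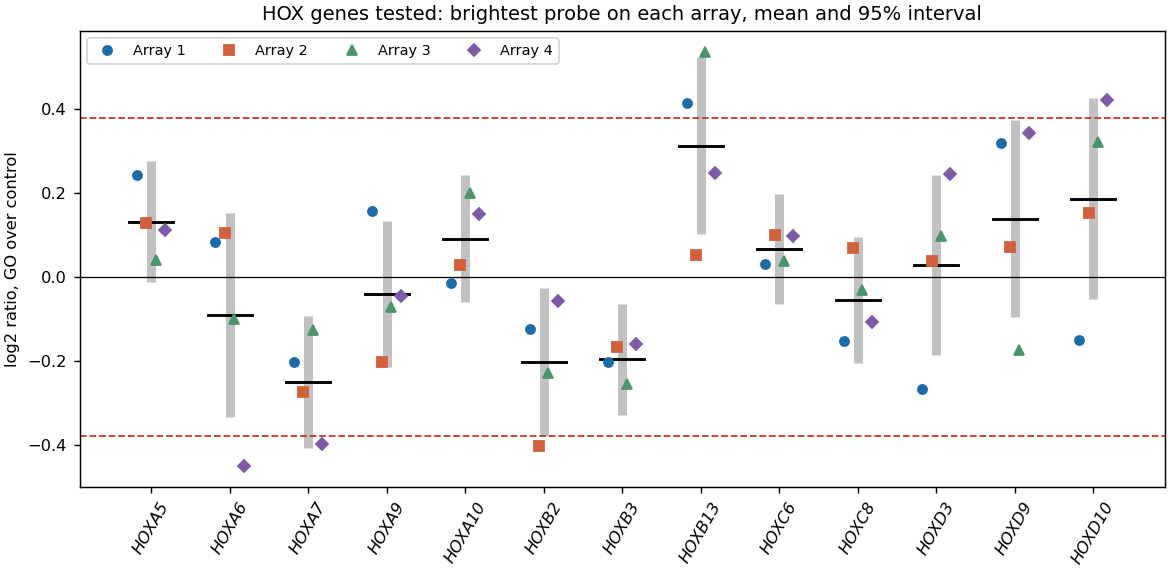
Log2 ratio of GO over control for the brightest probe of each of the 13 tested HOX genes (horizontal axis), with 1 symbol for each array, the mean as a black line and the 95% interval from limma as a grey bar. Dashed lines mark a 1.3-fold difference. All means lie between the dashed lines, from -0.25 for *HOXA7* to 0.31 for *HOXB13*.

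By their brightest probes, low-numbered genes, which pattern the hindbrain and neck, gave ratios below or near 0. *HOXB3* gave -0.20, -0.17, -0.25 and -0.16, a mean of -0.20 ± 0.04 (SD, n = 4) with an adjusted p of 0.0539 (limma). *HOXB2* gave -0.12, -0.40, -0.23 and -0.06, a mean of -0.20 ± 0.15 with an adjusted p of 0.102. Both genes lay below 0 on each array, and neither reached the threshold in the main run, before any alternative processing. For *HOXD3* the arrays of the brightest probe disagreed, with -0.27 on array 1 and 0.04, 0.10 and 0.24 on the others. Their mean was 0.03 ± 0.21. This probe was the lowest of 5 for *HOXD3*, whose means ran up to 0.33.

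Genes from the middle of the clusters, active in the trunk, were mixed. *HOXA7*, which lies between *HOXA6* and *HOXA9* in its cluster, was the only HOX gene with an adjusted p of at most 0.05 in the main run. Its log2 ratios were -0.20, -0.27, -0.13 and -0.40, a mean of -0.25 ± 0.12 (SD, n = 4, adjusted p = 0.0454). All 4 arrays lay below 0, but the mean is a 1.19-fold difference and under the fold threshold. Of all probes tested, 18.1% had an adjusted p this low, beside this 1 of 27. Leaving out any 1 array gave an adjusted p of 0.0715 to 0.155 (limma). With other processing *HOXB2*, *HOXB3* and *HOXB13* also reached an adjusted p of at most 0.05 in at least 1 setting.

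The genes near *HOXA7* had means nearer to 0 or above it, but differences between genes were not tested. *HOXA5* was above 0 on each array (0.24, 0.13, 0.04 and 0.11), with a mean of 0.13 ± 0.08. *HOXA6* was above 0 on arrays 1 and 2 (0.08 and 0.10) and below on arrays 3 and 4 (-0.10 and -0.45), with a mean of -0.09 ± 0.26. The 95% interval of *HOXA6*, from -0.33 to 0.15, included the *HOXA7* mean of -0.25. *HOXA9* had a mean of -0.04. In HOXC, *HOXC6* was slightly above 0 on each array, with a mean of 0.07 ± 0.04 and a 95% interval from -0.06 to 0.20.

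High-numbered genes, which pattern the lower trunk and the limbs, had mean ratios above 0 for 4 of 5 members, *HOXA9* being below. *HOXB13*, the last gene of its cluster, had the highest mean when the brightest probes of all 4 arrays were used. Its log2 ratios were 0.42, 0.05, 0.54 and 0.25, a mean of 0.31 ± 0.21 (SD, n = 4) with an adjusted p of 0.0542 (limma). The arrays were all above 0 but spread over a wide range, and arrays 1 and 3 alone exceeded 0.38. Without array 2 the mean was 0.40, past the fold threshold, with an adjusted p of 0.0619. With normexp background correction it was 0.15. Without array 1 *HOXD10* (0.30) was above *HOXB13* (0.28), and without array 3 the means of *HOXD9* and *HOXB13* were both 0.24.

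*HOXD10* lay below 0 on array 1 (-0.15) and above it on arrays 2 to 4 (0.15, 0.32 and 0.42), a mean of 0.19 ± 0.25 with an adjusted p of 0.228. Its neighbor *HOXD9* gave 0.32, 0.07, -0.17 and 0.34, a mean of 0.14 ± 0.24. *HOXA10*, a gene of the thigh level in the limb, was close to 0 on all arrays (-0.01, 0.03, 0.20 and 0.15), and *HOXA9* lay above 0 only on array 1, with a mean of -0.04 ± 0.15.

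Several genes were read by more than 1 probe, which shows how far ratios of the same transcript can differ. The 5 *HOXD3* probes are shifted by 1 base each and share 56 of 60 bases, yet their mean log2 ratios ranged from 0.03 to 0.33. The brightest of them gave the lowest value. The 5 *HOXD9* probes share 50 bases and ranged from -0.07 to 0.14, and the 4 *HOXA9* probes share 57 and ranged from -0.08 to 0.03. The pair of *HOXA5* probes gave 0.10 and 0.13.

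The probes of *HOXC8*, which start 29 bases apart and share 31, differed in sign. The brighter gave -0.05 (adjusted p = 0.574) and the other 0.22 (adjusted p = 0.0665, limma), the latter with 4 of 4 arrays above 0. For *HOXD10* the brighter probe gave 0.19 and the other 0.28. Both *HOXD3* and *HOXD9* probes had control signals of 2.21 to 5.07 times background, near the detection limit, and those of *HOXA5* 10.9 to 19.0 times. Whether the low signal had a part in the spread was not tested. The 0.30 between nearly identical *HOXD3* probes is larger than the mean ratio of 12 of the 13 genes.

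**Figure D3:**
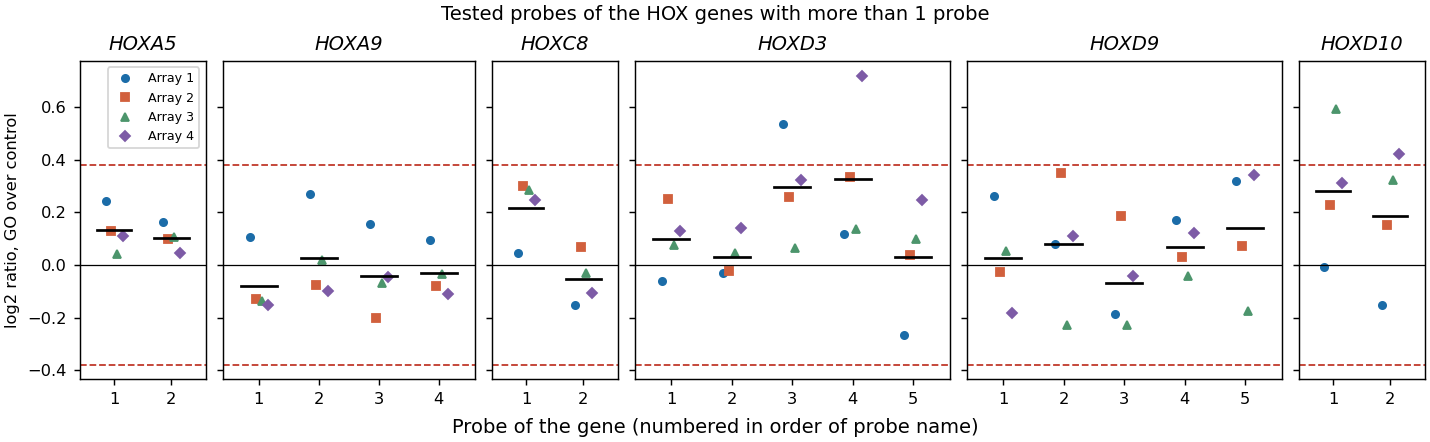
Log2 ratio of GO over control for each tested probe (horizontal axis, numbered within the gene) of the 6 HOX genes with more than 1 tested probe. Symbols are arrays, black lines probe means and dashed lines a 1.3-fold difference. The 5 *HOXD3* probes spread from 0.03 to 0.33 and the *HOXC8* probes lie on both sides of 0.

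Genes were next pooled over the clusters, each by its brightest probe. The median log2 ratio was -0.20 over the 3 genes numbered 1 to 4, -0.05 over the 5 numbered 5 to 8, and 0.14 over the 5 numbered 9 to 13. On arrays 1 to 4 the first of these medians was -0.20, -0.17, -0.23 and -0.06, and the last 0.16, 0.05, 0.20 and 0.25. The Spearman coefficient between gene number and mean ratio was 0.64 over 13 genes, and it was 0.46, 0.23, 0.57 and 0.49 on the single arrays. This pattern was noticed after the values were seen, the genes share 4 arrays and 1 normalization, and the difference between gene groups was not tested. It did not hold within every cluster. In HOXA the means from *HOXA5* to *HOXA10* were 0.13, -0.09, -0.25, -0.04 and 0.09. In HOXC *HOXC6* (0.07) was above *HOXC8* (-0.05) by the brightest probes. The other *HOXC8* probe, nearly as bright, gave 0.22, so this order depends on the probe. Gene number was also mixed with cluster, as the low-numbered genes were *HOXB2*, *HOXB3* and *HOXD3*. By cluster the medians were -0.04 for HOXA, -0.20 for HOXB, 0.006 for HOXC and 0.14 for HOXD. The 0.33 between the low-numbered and high-numbered medians is close to the 0.30 between the *HOXD3* probes. No gene in it passed the thresholds.

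The coefficient over the pooled genes was 0.57 after normexp background correction and loess, 0.65 with median centring in place of lowess, and 0.53 to 0.67 when 1 array was left out. Each of these kept the brightest probe of a gene, and the coefficient with other probes was not computed. The brightest *HOXD3* probe, at 0.03, was the lowest of 5, which ran up to 0.33, so the pattern may depend on the probe. With normexp the medians of the low and high numbers shrank to -0.11 and 0.07. Between the ratio and the GC content of the probe the coefficient was 0.10, and between the ratio and the signal of the probe 0.13. Among the 6 tested genes named only in descriptions, the coefficient was 0.52, with *HOXD13* at 0.19 and *HOXA11* at 0.14, but *HOXB9* at -0.22 and *HOXC9* at -0.14, the latter with all 5 probes below 0. These 6 had 14 tested probes, and 0 passed both thresholds.

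**Figure D4:**
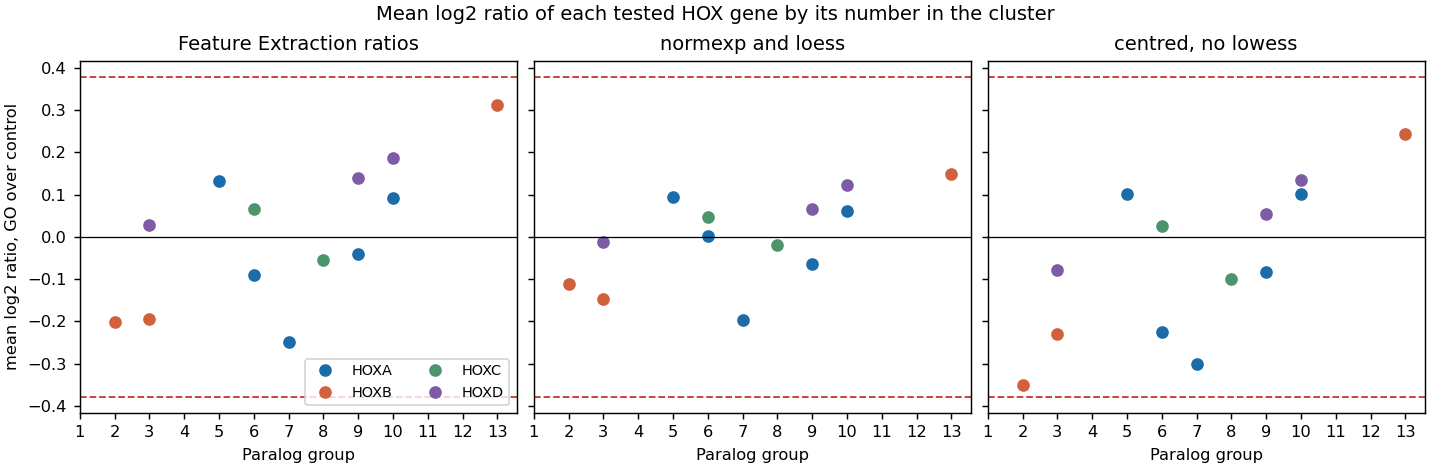
Mean log2 ratio of GO over control for the brightest probe of each tested HOX gene against its paralog group, colored by cluster, under 3 ways of normalizing the arrays. Dashed lines mark a 1.3-fold difference. Genes numbered 2 and 3 lie at or below about 0.03 in each panel, and the highest value is that of *HOXB13* in each.

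The partners and regulators of HOX genes were counted by the same rule, from lists of known members. Of all named genes tested, 8.82% passed both thresholds, and no list was tested as a set. Of 6 tested TALE cofactors, which bind DNA with HOX proteins, 0 passed both thresholds, with a median of 0.06. *MEIS3* (0.36, adjusted p = 0.0135) and *MEIS2* (0.32, adjusted p = 0.0396) passed on p alone and were named after their values were seen. With normexp background correction *MEIS3*, whose control signal was 2.94 to 4.19 times background, was at 0.14, and *MEIS2* at 0.28. Without array 1, or without array 3, 1 of the 6 passed both thresholds. Of 19 tested genes of the Polycomb list, 0 passed, and their log2 ratios ran from -0.21 to 0.20. Most of them encode repressors of HOX clusters, but the list also holds *KDM6B* (0.13), which does not. Of 14 tested genes of the Trithorax and MLL list, most but not all of which encode activators, 1 passed. It was *MLLT3*, a subunit of the super elongation complex, at -0.68, -0.67, -0.81 and -0.76 on the 4 arrays, a mean of -0.73 (adjusted p = 0.00190), lower on each array in GO-treated cells. This call was lost without the replicate block, that is, with the channels of an array not paired.

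Retinoic acid switches on HOX genes in the embryo. Of 9 tested genes of its pathway 1 passed, beside 8.82% of named genes. It was the receptor gene *RARG*, higher in GO-treated cells at 0.53, 0.41, 0.84 and 0.69, a mean of 0.62 (adjusted p = 0.00674). Its tested probes ran from 0.62 to 0.74, and without array 4 the pathway had 2 genes past both thresholds. With no filter on dim probes, with the plain one-sample test and without the replicate block, 0 passed. Genes beside the clusters that are not HOX genes passed in 3 of 14 cases, beside the same 8.82%. *SNX10*, a sorting nexin gene beside the HOXA cluster, was higher at 0.64, 0.89, 0.99 and 1.15, a mean of 0.92 (adjusted p = 0.00302). *SKAP2*, between *SNX10* and the HOXA cluster, was lower with a mean of -0.42 (adjusted p = 0.0157). *CBX1*, near HOXB, was lower at -0.49 (adjusted p = 0.0387), but its probes ranged from -0.57 to 0.06. Without array 2, or without array 3, 1 of the 14 passed. With normexp *SKAP2* was at -0.35 and did not pass, and the count was 1 with no filter on dim probes or no replicate block and 0 with the plain test.

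Other genes of limb position passed in 3 of 12 cases, beside 8.82% of named genes. *HAND2*, a factor of the posterior limb bud, was higher at 0.64 (adjusted p = 0.0152). *SIX4* and *EYA1*, partners in limb muscle precursors, were lower at -0.48 (adjusted p = 0.00788) and -0.42 (adjusted p = 0.0163). After normexp background correction none of the 3 passed, with log2 ratios of 0.36, -0.25 and -0.13. Without array 3, 1 passed, as with no filter on dim probes, and 0 passed with the plain test or no replicate block.

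Markers of muscle cells were lower in GO-treated cells. Of 12 muscle markers, 8 passed in this direction (*MYF5*, *MYOG*, *DES*, *MYH3*, *MYH8*, *ACTA1*, *TNNC1* and *MYL4*), and the list median was -0.54. *MYF5*, the myogenic factor of activated satellite cells, was at -0.93 (adjusted p = 0.00102), and *MYOD1* was at -0.36 (adjusted p = 0.0905). With median centring in place of lowess 3 of the 12 passed, with no replicate block 3, with no filter on dim probes 4, and with the plain one-sample test 1. Of 9 tested fibroblast markers only *PDGFRA* passed, higher at 0.87 (adjusted p = 0.0199), and 6 passed with that centring and 0 without array 2, with the plain test, with no filter or with no replicate block. With normexp *PDGFRA*, whose control signal was 2.16 to 3.17 times background, was at 0.37 and did not pass, and *COL1A2* passed at 0.40. Fewer cells of a type and less RNA per cell cannot be told apart in these cultures. The summed signal of the 12 muscle markers was 211139 to 285494 in the control channel and 126512 to 176436 in the GO channel, and that of 10 fibroblast markers 359959 to 560422 and 358894 to 489914. The part of these shifts in the HOX ratios was not tested.

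**Figure D5:**
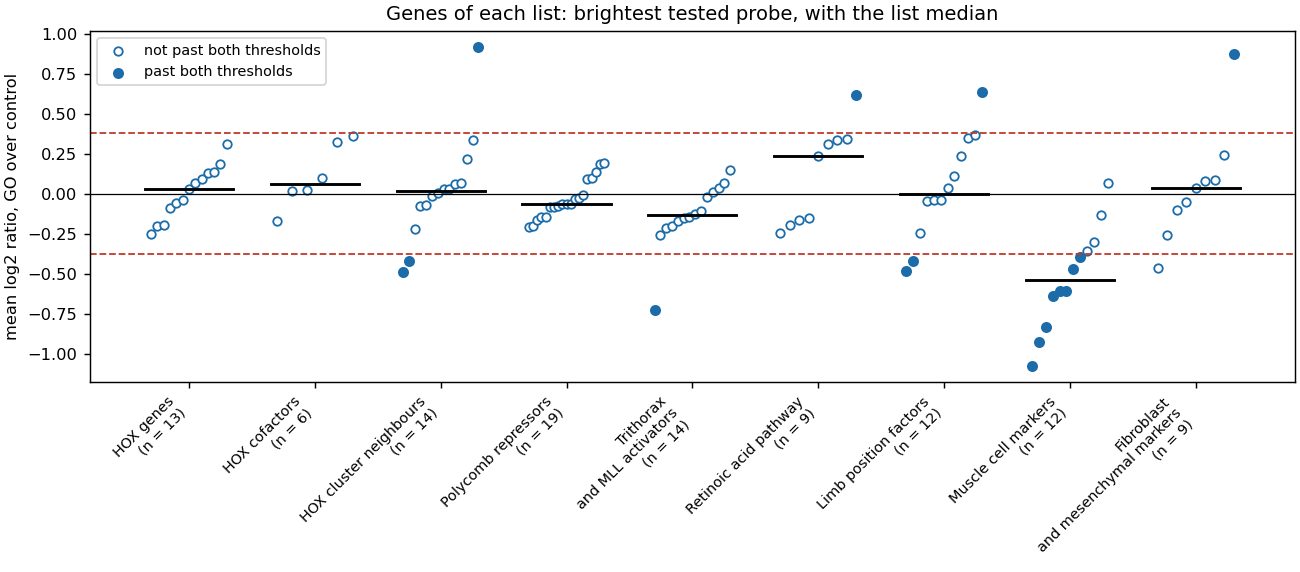
Mean log2 ratio of GO over control for the brightest tested probe of each gene, by list, with list medians as black lines, filled points for genes past both thresholds and dashed lines at a 1.3-fold difference. The 13 HOX genes hold no filled point, and 8 of the 12 muscle markers are filled and below 0.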

How the data were processed

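Per the labels, 4 two-color Agilent arrays were hybridized, GO in Cy5 and control in Cy3, and the 4 arrays form 1 group. The authors ran Feature Extraction, version 10.10.1.1 per the file headers, whereas the methods name another version. The deposited intensity values are mean, background and processed signals of each channel, and the deposited log10 ratios are processed Cy5 over Cy3 after linear and lowess dye normalization. Ratios were multiplied by log2 of 10. Control spots and outlier spots were left out and spots of 1 probe averaged. Probes well above background in 1 channel on all 4 arrays (26832) were tested two-sided with limma 3.58.1 in R 4.3.3 (intercept alone, eBayes), with Benjamini-Hochberg adjustment over them. The methods do not name the test. A gene is its brightest tested probe. The code was tested on simulated data.

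Of 43603 probes, 24936 were named in the files, 2924 through the RefSeq gene table of TB-T2T (names only) and 15743 not. The number of arrays limits precision. The HOX genes, the lists and the tests were chosen with earlier results of these data known. Results of 1 HOX gene and 1 marker gene are not reported here, and counts of HOX genes and of that marker list leave them out. By the rule for names, every other HOX gene is accounted for and genes of other lists are named where they passed both thresholds or check a label. Outside this rule, *MEIS2*, *MEIS3*, *KDM6B*, *COL1A2* and some leukocyte and adipocyte markers are named, none of which passed both thresholds in the main run. HOX genes given with their arrays were picked after their values were seen.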

Additional observations from a re-analysis of the deposited data

How the results depend on the processing

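The count of HOX genes and probes past both thresholds was 0 under each alternative run: normexp (offset 50) with loess, median centring without lowess, centring of the ratios, no filter on dim probes, a filter on both channels, a plain one-sample test, array weights, no replicate block, each array left out, and the mean over the probes of a gene. All probes past both thresholds numbered 2399, and 1297 with normexp, 908 without the filter, 147 with the plain test, 370 without the replicate block (the pairing of channels within an array), and 1566 to 2430 with 1 array left out, 1566 being without array 2. The median HOX log2 ratio, 0.03, was -0.078 with median centring without lowess (all named genes: -0.02), 0.002 with normexp, and 0.006 to 0.079 with 1 array left out. *HOXA7* had an adjusted p of at most 0.05 in 6 of 13 settings, from 0.0288 to 0.515, and log2 ratios of -0.30 to -0.20. *HOXB3* reached this adjusted p in 4 of 13 settings, *HOXB13* in 1 of 13 and *HOXB2* in 1 of 12. Their smallest values were 0.0393, 0.0467 and 0.0303 (limma). The mean turned sign for *HOXD3* with normexp, with median centring and without array 4, for *HOXA6* with normexp and without array 4, and for *HOXA9* without array 2. HOX genes above background numbered 13, and 14 when 3 of 4 arrays were enough, 20 by the weaker flag of a positive and significant signal, 11 in the GO channel and 13 to 14 with 1 array left out. By the brightest probe, a ratio of 1.3-fold was inside the interval of 3 of 13 genes. Intervals of less bright *HOXD3* probes also reached it, up to log2 ratios of 0.50 and 0.59. HOX genes not above background were tested only with no filter on dim probes, where 0 of 23 genes passed both thresholds.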
